A study of Mus musculus with 7 samples.

Results

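Podoplanin-positive cancer-associated fibroblasts (pCAF) were set beside the GFP- EpCAM- cells of 4T1 mammary tumours, a sort gated against erythroid, leukocyte, epithelial and GFP-labelled cells. They are 2 of the 7 bulk 3' mRNA libraries of the series, taken because 1 is sorted on podoplanin and the other is not. The pCAF library came from 4T1-luc tumours and was sorted as Ter119- CD45- EpCAM- PDPN+. The GFP- EpCAM- library came from 4T1-GFP tumours and was sorted as Ter119- CD45- GFP- EpCAM-, with no gate on podoplanin. Ter119, CD45 and EpCAM mark erythroid cells, leukocytes and epithelial cells. Both used BALB/c females that received 100000 cells of the 4T1 mouse mammary carcinoma line in a mammary fat pad, and both were taken after 4 weeks, at an age of 12 weeks. The tumours of both were digested with collagenase A and DNase, but the labelled carcinoma line differed, and the number of mice behind a library is unknown from the labels. The other libraries were podoplanin-negative CAF (sCAF) from 4T1-luc tumours, normal mammary fat pad stroma (NMF) of uninjected mice 8 weeks old, and the GFP- EpCAM+, GFP+ EpCAM- and GFP+ EpCAM+ sorts of 4T1-GFP tumours. Counts of pCAF, sCAF and NMF stood in a first deposited table and those of the 4 GFP and EpCAM sorts in a second, made separately. Of 24394 gene names in the first table and 13236 in the second, 13236 were in both, and the 7670 with 20 or more counts in either library were compared.

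Cancer-associated fibroblasts are the matrix-making cells of the tumour stroma: they secrete collagens, proteoglycans and the enzymes that cross-link and cut them, and some also secrete chemokines and complement. Podoplanin is a membrane glycoprotein of lymphatic endothelium and of many activated fibroblasts. A sort on the absence of leukocyte, epithelial and tumour markers can also hold endothelial cells, the pericytes that wrap small vessels, fat and muscle, and any blood cell that carries little CD45.

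Windows before 4 genes are shown, a pair from the fibroblast side of the comparison and a pair from the basophil side. Pdpn and Lrrc15 are membrane protein genes of activated fibroblasts, and Prss34 and Il13, a basophil protease and a type 2 cytokine, are genes of basophils and mast cells. Each line gives the 250 bases before the gene's start from RefSeq on GRCm38.p6, read in the gene's direction. Capitals mark a GATA-type motif (AGATAA or AGATAG, and likewise TGATAA or TGATAG, on either strand), the kind of sequence that GATA2, a transcription factor of mast cells and basophils, binds. The windows are chr4:143299565-143299814 on the minus strand for Pdpn, chr16:30283255-30283504 on the minus strand for Lrrc15, chr17:25298144-25298393 on the plus strand for Prss34 and chr11:53634703-53634952 on the minus strand for Il13.
Pdpn: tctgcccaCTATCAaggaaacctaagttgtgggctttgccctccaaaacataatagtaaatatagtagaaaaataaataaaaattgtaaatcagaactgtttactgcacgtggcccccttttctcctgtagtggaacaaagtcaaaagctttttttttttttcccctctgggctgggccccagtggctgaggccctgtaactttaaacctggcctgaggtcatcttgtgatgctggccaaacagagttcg
Lrrc15: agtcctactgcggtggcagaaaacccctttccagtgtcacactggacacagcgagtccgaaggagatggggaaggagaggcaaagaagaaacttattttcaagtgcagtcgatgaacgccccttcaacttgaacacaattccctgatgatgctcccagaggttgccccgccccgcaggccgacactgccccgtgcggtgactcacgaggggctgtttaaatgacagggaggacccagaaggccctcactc
Prss34: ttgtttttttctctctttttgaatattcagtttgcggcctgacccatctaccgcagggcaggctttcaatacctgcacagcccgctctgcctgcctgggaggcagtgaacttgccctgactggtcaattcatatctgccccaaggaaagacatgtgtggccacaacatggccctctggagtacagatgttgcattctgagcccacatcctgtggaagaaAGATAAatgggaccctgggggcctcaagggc
Il13: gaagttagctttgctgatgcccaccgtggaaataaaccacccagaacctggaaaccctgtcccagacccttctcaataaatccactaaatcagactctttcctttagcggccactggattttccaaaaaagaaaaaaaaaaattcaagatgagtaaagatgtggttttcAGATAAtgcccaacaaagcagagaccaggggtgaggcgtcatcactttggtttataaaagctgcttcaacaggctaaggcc
The motif began at position -31 in Prss34, -81 in Il13 and -242 in Pdpn, counted back from the start, and these letters were not in the Lrrc15 window, nor in that of the basophil protease gene Mcpt8, which is not shown. It was in 10 of the 16 windows (62.5%) that RefSeq gives for 13 of the 14 basophil and mast cell genes listed, and in 8718 of 32851 windows (26.5%) of all genes. The shares were 26.7% (4 of 15 windows) for blood endothelial genes, 29.4% (5 of 17) for fibroblast identity genes and 16.7% (3 of 18) for genes of resting fibroblasts. A match describes the letters and does not show binding.

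The pCAF library held 434592 counts on the shared names and the GFP- EpCAM- library 1338608, so 3 counts, the limit that a count of 0 allows, are 6.9 CPM (counts scaled to a common library total) in pCAF and 2.24 CPM in GFP- EpCAM-. Levels below are CPM of these totals, and ratios are pCAF over GFP- EpCAM- with an exact 95% interval that covers counting error only. A ratio given as "at least" takes the 0 counts of a library as 3. The limit of the exact interval then lies somewhat nearer to 1, as for Pecam1, at 169-fold where 207-fold is given below. With 1 library per group and a table each, no test was possible, and every ratio describes these libraries. A gene is called higher or lower in pCAF when its whole interval lies beyond 2-fold. In pCAF 560 genes (7.30%) were thus higher and 1087 (14.2%) lower, together 21.5% of those compared, and over all genes the log2 ratio had a median of -0.46. These shares and the median depend on the count filter. Of the genes compared, 4314 reached 20 counts only in GFP- EpCAM-, the deeper library, 212 only in pCAF and 3144 in both. With no count filter 757 genes were higher and 1087 lower, and the median was -0.225. The count filter took in 145 genes whose higher count was 20, which is 46.0 CPM in pCAF and 14.9 CPM in GFP- EpCAM-, and left out 144 whose higher count was 19.

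Many genes differed between the libraries of the tables, but those libraries also differ in their sort. A separation by table therefore does not show a difference between the tables themselves. The share of genes that the sort alone would separate was not tested. For 2888 genes (37.7%) the other 5 libraries separated by table, with NMF and sCAF both above or both below all of GFP- EpCAM+, GFP+ EpCAM- and GFP+ EpCAM+. Among the calls 188 of the higher genes and 261 of the lower genes were separated the same way. Members of a list below are named as such or only counted within their list, so a ratio given without this remark may still belong to a separated gene. The table and the sort cannot be told apart for these genes. The place of a library inside its own table is given as a description, since the calls were made on the same values. The pCAF library was the highest of its 3 for 370 of the 560 higher genes (66.1%, against 22.1% of all genes). GFP- EpCAM- was the highest of its 4 for 269 of the higher genes (48.0%) and 771 of the 1087 lower genes (70.9%, against 39.8% of all genes). Ranked over the 7670 genes, pCAF had a Spearman rho of 0.52 with GFP- EpCAM-, 0.69 with NMF, 0.52 with sCAF and 0.51 to 0.54 with the other sorts. GFP- EpCAM- had a rho of 0.65 with GFP- EpCAM+, 0.63 with GFP+ EpCAM-, 0.62 with GFP+ EpCAM+, 0.60 with NMF and 0.58 with sCAF. The sCAF library had a rho of 0.85 to 0.86 with the 3 sorts that are GFP+ or EpCAM+ and 0.51 with NMF. These values run across genes, share each library's depth and use a filter set on the libraries compared, so they carry no p.

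The pCAF library held the markers of its sort at high levels, and the GFP- EpCAM- library held few counts of some fibroblast genes, among them Pdpn, Pdgfra and Lum, but 1979 of Col1a1 and 1411 of Col3a1. Pdpn, on which pCAF was gated, had 256 counts in pCAF and 3 in GFP- EpCAM-, which is 589 and 2.24 CPM, with 57.8 CPM in NMF, 1.75 CPM in GFP- EpCAM+ and 0 counts in sCAF and both GFP+ sorts. Its gene spans 143267431 to 143299564 of chromosome 4 (GRCm38, minus strand), and the 263-fold ratio (88.9 to 1283) follows the gate. Col3a1, which encodes the chain of type III collagen, stood at 17053 CPM in pCAF and 1054 CPM in GFP- EpCAM-, with 10259 CPM in NMF, 27.4 CPM in sCAF and 1.26 to 12.2 CPM in the other sorts. Each of the compared libraries was thus the highest of its own table for Col3a1, and the ratio was 16.2 (15.3 to 17.1). Pdgfra, a growth factor receptor gene that defines most fibroblasts, had 73 counts in pCAF and 2 in GFP- EpCAM-, 168 and 1.49 CPM, and GFP- EpCAM- was the lowest of its table, under the 5.82 to 35.8 CPM of the other sorts. Epcam had 0 counts in pCAF and 46 in GFP- EpCAM-, and Ptprc, which encodes CD45, had 0 counts in pCAF and 29 in GFP- EpCAM-. The 5 genes with most counts in pCAF were Col1a2, Col3a1, Sparc, Col1a1 and Bgn, all of the matrix, and in GFP- EpCAM- they were Igfbp7, H2-D1, Vim, Actb and Ccl4, of which Igfbp7 encodes a secreted protein abundant in vessels and Ccl4 a leukocyte chemokine.

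**Figure D1:**
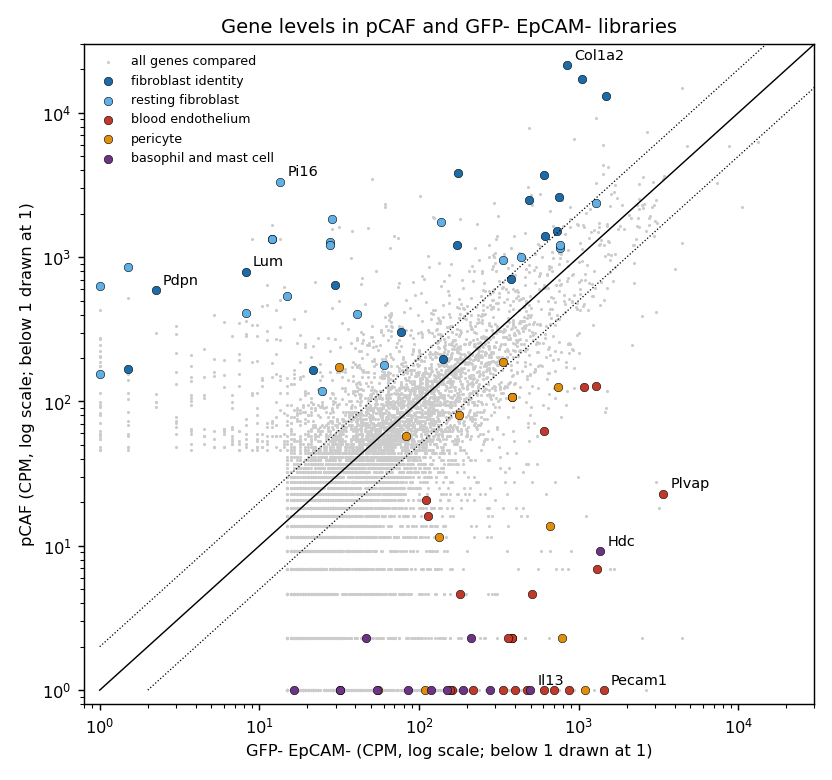
Level of each of the 7670 genes in pCAF (vertical axis) and GFP- EpCAM- (horizontal axis), in CPM on log axes with values below 1 CPM drawn at 1; the solid line marks equal levels and the dotted lines 2-fold. Fibroblast genes such as Pdpn, Pi16 and Lum lie above the lines, and endothelial and basophil genes such as Pecam1, Plvap and Hdc lie far below them.

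Fibroblast identity genes were higher in pCAF as a group. Of 22 genes listed, 21 were in both tables and 20 were compared, of which 16 were higher and 1 lower, with a median log2 ratio of 2.87 beside -0.46 for all genes. Pdpn, whose direction was fixed by the gate, is among the 16 and enters the median. Their summed level was 73354 CPM in pCAF and 7970 CPM in GFP- EpCAM-, with 51045 CPM in NMF, 996 CPM in sCAF and 828 to 1918 CPM in the other sorts. Lum, which encodes the collagen-binding proteoglycan lumican, stood at 792 CPM in pCAF and 8.22 CPM in GFP- EpCAM-, a 96.3-fold ratio (53.2 to 195). Dcn, the related decorin, stood at 3831 CPM in pCAF and 176 CPM in GFP- EpCAM-, 21.7-fold (19.0 to 25.0). Fap, a surface protease of activated fibroblasts, stood at 166 CPM in pCAF and 21.7 CPM in GFP- EpCAM-, 7.65-fold (4.91 to 12.2). Lum, Dcn and Fap thus lay on the pCAF side, and Pdgfrb did not. Pdgfrb, the receptor gene of both fibroblasts and pericytes, was the 1 member lower in pCAF, at 108 CPM in pCAF and 381 CPM in GFP- EpCAM-, 3.52-fold (2.61 to 4.86). Thy1, Fbln2 and Twist1 met neither call, at ratios of 2.07 (1.87 to 2.29), 1.89 (1.64 to 2.18) and 1.38 (1.05 to 1.79). Of the 16 higher genes, 7 were separated by table the same way, namely Col1a1, Col1a2, Col3a1, Dcn, Mfap5, Pdgfra and Postn. In bulk RNA, fewer cells of a type and less RNA per cell cannot be told apart.

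The balance of fibroblast genes within each library, which needs no scaling between tables, also differed. Pdgfra counts were 1.55 times those of Pdgfrb in pCAF (1.06 to 2.29) and 0.00392 times in GFP- EpCAM- (0.000474 to 0.0142), against 2.26 times in NMF. Lum counts were 0.0600 times those of Col1a1 in pCAF (0.0537 to 0.0669) and 0.00556 times in GFP- EpCAM- (0.00277 to 0.00997), against 0.0821 times in NMF. Measured within a library, the GFP- EpCAM- cells thus had less Pdgfra and less Lum beside their Pdgfrb and Col1a1 than pCAF or NMF. Col1a1 counts were 0.619 times those of Col1a2 in pCAF (0.599 to 0.640) and 1.76 times in GFP- EpCAM- (1.64 to 1.90). That ratio varied widely among the libraries, at 0.837 in NMF, 2.34 in sCAF and 2.73 to 8.25 in the other sorts. In the other 5 libraries it parted by table, with NMF and sCAF below the other sorts, though GFP- EpCAM- lay below sCAF. The table and the sort cannot be told apart for this ratio.

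The genes that build and mature collagen were higher in pCAF almost throughout. Of 13 fibrillar and fibril-associated collagen genes listed 10 were compared, and 9 were higher and 0 lower (median log2 ratio 3.59). Col1a2, the second chain of type I collagen, stood at 21307 CPM in pCAF and 840 CPM in GFP- EpCAM-, 25.4-fold (23.8 to 27.0). Col1a1, its partner chain, stood at 13187 CPM in pCAF and 1478 CPM in GFP- EpCAM-, 8.92-fold (8.47 to 9.39). The fibril-associated Col14a1 and Col12a1 were 49.3-fold (26.9 to 101) and 43.8-fold (27.5 to 73.8) higher, and Col5a3 was the nearest to equal of those called, at 2.53-fold (2.23 to 2.87). Of these 9 genes, 4 were separated by table the same way. Among 17 collagen maturation genes 16 were compared, and 12 were higher and 0 lower (median 2.52), 4 of them separated by table the same way. Lox, the enzyme that cross-links collagen and elastin, stood at 1337 CPM in pCAF on 581 counts and 8.97 CPM in GFP- EpCAM- on 12 counts, 149-fold (84.7 to 290). Plod2, a lysyl hydroxylase, was 24.5-fold higher (14.9 to 42.5) and Loxl1, a relative of Lox, 21.4-fold (15.3 to 30.6). Serpinh1, the collagen chaperone, stood at 1134 CPM in pCAF and 1047 CPM in GFP- EpCAM-, a ratio of 1.08 (0.976 to 1.20), and Pcolce, an enhancer of procollagen cleavage, at 2.21 (1.98 to 2.48), so neither was called. With TMM factors Pcolce passed the rule (log2 ratio 1.28).

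Proteoglycan, matricellular and matrix protease genes were likewise higher in pCAF. Of 11 proteoglycan genes 10 were compared, and 9 were higher and 0 lower (median 3.21), 5 of them separated by table the same way. Bgn, the proteoglycan biglycan, stood at 9280 CPM in pCAF and 1288 CPM in GFP- EpCAM-, 7.21-fold (6.81 to 7.63). Ogn, the related osteoglycin, had 119 counts in pCAF and 1 in GFP- EpCAM-, 367-fold (64.5 to 14598), and Vcan, the large proteoglycan versican, 91 counts in pCAF and 5 in GFP- EpCAM-, 56.1-fold (23.2 to 177). Hspg2, which encodes the basement membrane proteoglycan perlecan, met neither call at 0.911 (0.746 to 1.11). Of 16 matricellular genes, all compared, 14 were higher and 0 lower (median 2.78), 5 of them separated by table the same way. They ran from Tnxb, the extracellular glycoprotein tenascin X, at 43.6-fold (31.2 to 62.7) to Spp1, which encodes osteopontin, at 2.34-fold (2.10 to 2.61). Fn1, the fibronectin gene, stood at 6537 CPM in pCAF and 934 CPM in GFP- EpCAM-, 7.00-fold (6.55 to 7.49). Among 15 genes of matrix metalloproteases and their inhibitors 12 were compared, and 7 were higher and 0 lower (median 2.11). Mmp3, or stromelysin 1, and Mmp2, or gelatinase A, were 43.8-fold (25.5 to 81.5) and 38.3-fold (30.5 to 48.5) higher, Mmp2 separated by table the same way. The inhibitor gene Timp1 was 10.1-fold higher (8.76 to 11.7). Mmp14, a membrane-bound protease, met neither call, at 267 CPM in pCAF and 518 CPM in GFP- EpCAM-.

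Of the lists higher in pCAF, that of resting and adventitial fibroblasts had the highest median. Of 20 genes listed 19 were compared, and 16 were higher and 0 lower in pCAF, with a median log2 ratio of 5.17. Their summed level was 20744 CPM in pCAF and 3978 CPM in GFP- EpCAM-, with 60192 CPM in NMF, 737 CPM in sCAF and 2734 to 5151 CPM in the other sorts. Pi16, a peptidase inhibitor gene that marks adventitial fibroblasts, had 1444 counts in pCAF and 18 in GFP- EpCAM-, 3323 and 13.5 CPM, a 247-fold ratio (156 to 418). Sfrp2, a secreted Wnt modulator, had 369 counts in pCAF and 2 in GFP- EpCAM-, 568-fold (156 to 4710). Its relative Sfrp4 had 276 counts in pCAF and 1 in GFP- EpCAM-, 850-fold (151 to 33698). Levels of Pi16 and Sfrp4 were higher still in NMF, at 6363 and 944 CPM, while Sfrp2 stood at 849 CPM in pCAF against 324 CPM in NMF. The 3 members that met neither call, Cd34, Ly6a and Ly6c1, are surface protein genes that endothelial cells also express, and their ratios were 1.51 (1.35 to 1.68), 1.86 (1.72 to 2.01) and 1.60 (1.44 to 1.78). At 764, 1286 and 761 CPM they made up much of the summed level in GFP- EpCAM-. In the other sorts Ly6a stood at 1680 to 3207 CPM and Ly6c1 at 296 to 1141 CPM, while Pi16 stood at 2.33 to 5.05 CPM. Of the 16 higher genes, 5 were separated by table the same way.

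**Figure D2:**
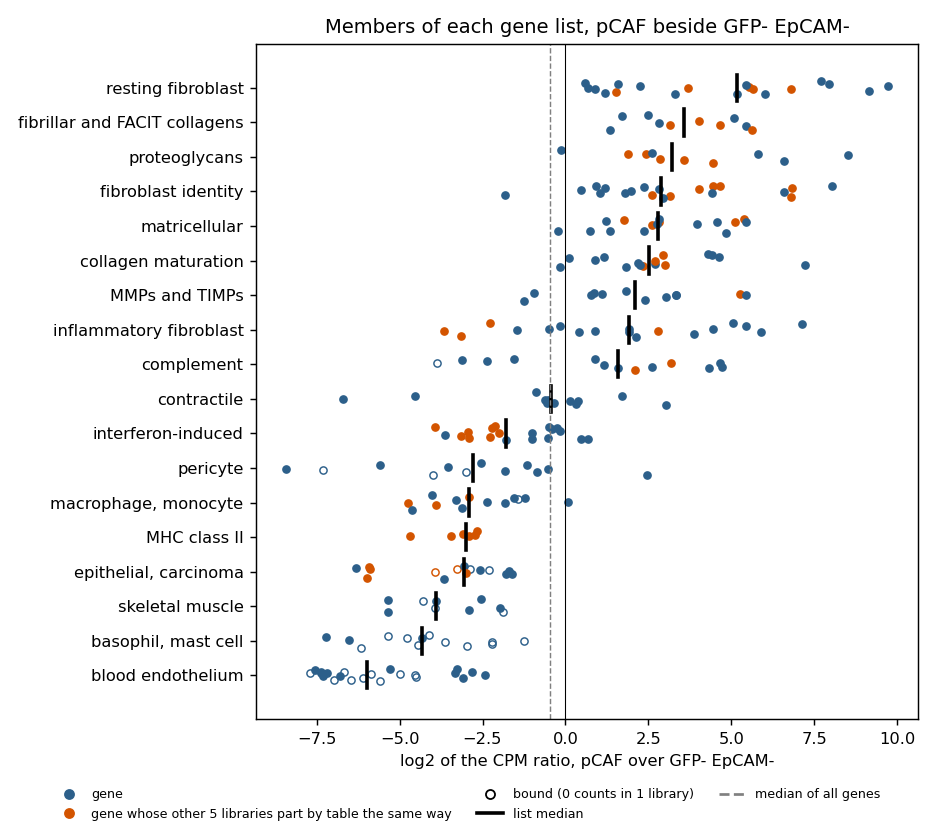
Log2 ratio of each compared gene, pCAF over GFP- EpCAM-, in 18 gene lists, with open points for bounds at 0 counts, orange for genes whose other 5 libraries part by table in the direction of the call, black bars for list medians and a dashed line at the median of all genes, -0.46. Medians run from 5.17 for resting fibroblast genes to -5.98 for blood endothelial genes.

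Among the other genes at the upper end, chosen by the interval bound nearest to 1 and not separated by table, Lrrc15 had 228 counts in pCAF and 2 in GFP- EpCAM-, 351-fold (96.1 to 2917), and stood at 18.1 CPM in NMF and 0 counts in sCAF. Ptgis, the prostacyclin synthase gene, had 107 counts in pCAF and 0 in GFP- EpCAM-, at least 110-fold higher. Hsd17b1, a steroid dehydrogenase gene, had 90 counts in pCAF and 0 in GFP- EpCAM-, at least 92.4-fold higher. The rest of the 10 were Sfrp2, Sfrp4, Pi16, Lox, Cxcl14, Ogn and Pdpn, so that matrix and secreted protein genes made up most of them. The place of Pdpn follows the gate.

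Inflammatory fibroblast genes split. Of 21 listed 18 were compared, and 10 were higher and 4 lower in pCAF (median 1.91). Cxcl14, a chemokine of fibroblasts and epithelia, stood at 1664 CPM in pCAF and 11.9 CPM in GFP- EpCAM-, 139-fold (85.1 to 245). Has1, a hyaluronan synthase, and Ptx3, a pentraxin of the innate response, were 59.7-fold (29.5 to 141) and 43.7-fold (23.8 to 89.3) higher. Saa3, an acute-phase gene, was 33.3-fold higher (25.8 to 43.7), and the monocyte chemoattractant genes Ccl7 and Ccl2 were 21.7-fold (14.3 to 34.1) and 4.36-fold (3.84 to 4.97) higher. The lower members were the neutrophil chemoattractant gene Cxcl2, the iron-binding Lcn2, the NF-kB inhibitor Nfkbia and the cytokine Il6. Cxcl2 stood at 117 CPM in pCAF and 1495 CPM in GFP- EpCAM-, 12.7-fold lower (9.65 to 17.2), and it, Lcn2, Nfkbia and, among the higher genes, the eosinophil chemoattractant gene Ccl11 were separated by table the same way. Il6 stood at 232 CPM in pCAF and 643 CPM in GFP- EpCAM-, 2.77-fold lower (2.25 to 3.44), a call lost with DESeq2 size factors (log2 ratio -1.30). Cxcl1, a relative of Cxcl2, and Cxcl12, a chemokine of resting stroma, met neither call at 1.86 (1.74 to 1.99) and 1.33 (1.10 to 1.60). The macrophage, basophil and endothelial lists described further on were lower in pCAF beside these genes, and their part in the result was not tested.

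Complement genes went both ways. Of 14 listed 13 were compared, and 7 were higher and 3 lower (median 1.59). C3, the central component, stood at 2653 CPM in pCAF and 102 CPM in GFP- EpCAM-, 26.1-fold (21.8 to 31.4), and C4b of the classical pathway at 1394 CPM in pCAF and 69.5 CPM in GFP- EpCAM-, 20.1-fold (16.1 to 25.2). The C1 inhibitor gene Serping1 was 4.24-fold higher (3.99 to 4.50). Of the 7 higher genes 2, Serping1 among them, were separated by table the same way. The lower genes were C1qb and C1qc, subunits of the macrophage protein C1q, and the adipocyte gene Cfd. C1qb was 5.15-fold (2.42 to 13.1) and C1qc 8.66-fold (2.86 to 42.9) lower, and Cfd, at 0 counts in pCAF, was at least 14.7-fold lower.

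Contractile genes had no common direction. Of 13 listed 12 were compared, and 2 were higher and 2 lower, at a median of -0.45 next to -0.46 for all genes. Acta2, smooth muscle actin, had 15 counts in pCAF and 67 in GFP- EpCAM-, 34.5 and 50.1 CPM, a ratio of 0.690 (0.366 to 1.22). Tagln, an actin-binding protein gene of smooth muscle and myofibroblasts, stood at 858 CPM in pCAF and 666 CPM in GFP- EpCAM-, a ratio of 1.29 (1.14 to 1.46). Acta2 was thus not detectably different at this depth. Cnn1, or calponin, and Cald1, or caldesmon, were 8.21-fold (3.69 to 20.1) and 3.23-fold (2.77 to 3.77) higher. Myh11, the smooth muscle myosin, had 1 count in pCAF and 322 in GFP- EpCAM-, 105-fold lower (18.6 to 4142), and Mylk, its kinase, was 23.3-fold lower (9.90 to 72.2).

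Basement membrane genes divided by chain. Of 15 listed 14 were compared, and 3 were higher and 5 lower (median -0.34). Col4a1, which encodes the main chain of type IV collagen, stood at 417 CPM in pCAF and 3058 CPM in GFP- EpCAM-, 7.34-fold lower (6.32 to 8.57), and Col4a2 was 6.43-fold lower (5.51 to 7.55). Col18a1, the precursor of endostatin, was 16.5-fold lower (12.1 to 23.3), Lama5, a laminin chain of vessels and epithelia, 38.4-fold (14.9 to 141) and Nid2 4.41-fold (2.56 to 8.21). The higher genes were Nid1, which links laminin to collagen, at 4.01-fold (3.45 to 4.65), the muscle laminin chain Lama2 at 3.74-fold (2.69 to 5.21) and the collagen-binding Sparc at 3.37-fold (3.25 to 3.49). These 3 and Lama5 were separated by table the same way.

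Blood endothelial genes had the lowest list median. All 22 genes listed were compared and all 22 were lower in pCAF, with a median log2 ratio of -5.98. This median holds bounds, since 10 of the genes had no pCAF count. Their summed level was 400 CPM in pCAF and 15063 CPM in GFP- EpCAM-, with 1093 CPM in sCAF, 5803 CPM in NMF and 351 to 533 CPM in the other sorts. GFP- EpCAM- was the highest of its table for 22 of 22 genes and pCAF the lowest of its table for 18 of 22, and 19 of the 22 were separated by table, all against the direction of the call. Without those 19 the median was -3.32, above the -4.22 of basophil and mast cell genes. Pecam1, the endothelial adhesion molecule CD31, had 0 counts in pCAF and 1917 in GFP- EpCAM-, at least 207-fold lower, and stood at 355 CPM in NMF. Plvap, a protein of endothelial pores, had 10 counts in pCAF and 4536 in GFP- EpCAM-, 147-fold lower (80.0 to 307). Egfl7, a secreted endothelial factor, had 3 counts in pCAF and 1748 in GFP- EpCAM-, 189-fold lower (64.6 to 918). The least distant were Tek, Kdr, Ramp2, Ecscr and Eng, between 5.34-fold and 9.99-fold lower. Eng, a TGF-beta co-receptor gene that stromal cells also express, had 56 counts in pCAF and 1723 in GFP- EpCAM-. Of the lymphatic list 2 of 7 genes were compared: Flt4, a receptor gene of lymphatic endothelium, was 7.36-fold lower (2.41 to 36.6), and the other is Pdpn itself.

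Pericyte genes were lower in most cases. All 12 listed were compared. In pCAF 8 were lower and 1 higher (median -2.78), and GFP- EpCAM- was the highest of its table for 12 of 12. Rgs5, a G protein regulator gene of pericytes, had 0 counts in pCAF and 1463 in GFP- EpCAM-, at least 158-fold lower. Mcam, an adhesion molecule gene of mural and endothelial cells, had 1 count in pCAF and 1050 in GFP- EpCAM-, 341-fold lower (61.1 to 13477), and Notch3, the receptor of mural cells, 6 counts in pCAF and 885 in GFP- EpCAM-, 47.9-fold lower (21.9 to 131). Anpep, an aminopeptidase gene that fibroblasts also use, was the member called higher, at 5.50-fold (3.72 to 8.23). Cspg4, Kcnj8 and Ndufa4l2 met neither call, at ratios of 0.694 (0.431 to 1.08), 0.449 (0.306 to 0.642) and 0.553 (0.431 to 0.702).

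Genes of basophils and mast cells were nearly absent from pCAF. Of 14 listed 13 were compared, and 12 were lower and 0 higher (median -4.33). Their summed level was 13.8 CPM in pCAF, on 6 counts, and 3086 CPM in GFP- EpCAM-, with 4.61 to 87.4 CPM in the other 5 libraries. The basophil protease gene Mcpt8 had 1 count in pCAF and 283 in GFP- EpCAM-, 91.9-fold lower (16.4 to 3642). Hdc, the enzyme that makes histamine, had 4 counts in pCAF and 1831 in GFP- EpCAM-, 149-fold lower (57.9 to 546). The cytokine genes Il13 and Il4, at 0 counts in pCAF and 665 and 373 in GFP- EpCAM-, were at least 72.0-fold and 40.4-fold lower, and Prss34 was at least 17.3-fold lower. Gata2 had 0 counts in pCAF and 251 in GFP- EpCAM-, at least 27.2-fold lower. GFP- EpCAM- was the highest of its table for all 13, and 0 were separated by table in the direction of the call. The GFP- EpCAM- sort was gated against CD45, whose gene Ptprc had 29 counts there. Carboxypeptidase Cpa3, the mast cell gene, met neither call with 0 counts in pCAF and 22 in GFP- EpCAM-.

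The other genes at the lower end include leukocyte and vessel genes. Ccl4, a chemokine gene of activated leukocytes, had 1 count in pCAF and 5957 in GFP- EpCAM-, 1934-fold lower (347 to 76402), against 136 CPM in GFP- EpCAM+ and 0.505 to 1.26 CPM in the remaining 4 libraries. Its neighbour in function Ccl3 had 0 counts in pCAF and 3533 in GFP- EpCAM-, at least 382-fold lower. Ccl6, another chemokine gene, had 3 counts in pCAF and 2233 in GFP- EpCAM-, 242-fold lower (82.6 to 1173). Selp, which encodes the P-selectin of endothelium and platelets, had 0 counts in pCAF and 1665 in GFP- EpCAM-, at least 180-fold lower. Lrg1, a secreted glycoprotein gene of vessels, had 8 counts in pCAF and 4279 in GFP- EpCAM-, 174-fold lower (88.1 to 402). Csf2rb2, a cytokine receptor subunit gene, was 124-fold lower (42.3 to 602), and Adgrg1, an adhesion G protein-coupled receptor gene at 0 counts in pCAF, at least 53.4-fold lower. Mcam, Hdc and Il13 complete the 10. For all 10 genes GFP- EpCAM- was the highest of its table.

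**Figure D3:**
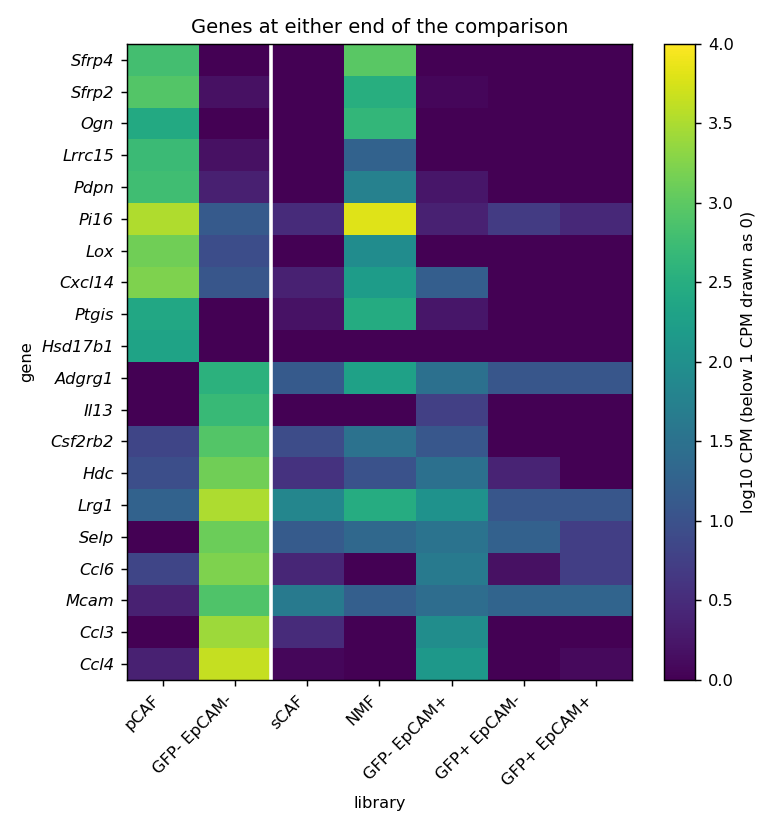
Level of the 10 genes at the upper and the 10 at the lower end in all 7 libraries, as log10 CPM with values below 1 CPM drawn as 0, with a white line after the libraries compared. The upper genes are bright in pCAF and mostly in NMF, and the lower ones brightest in GFP- EpCAM-.

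Several other cell type lists had members lower in pCAF. Of 18 macrophage and monocyte genes 13 were compared, and 10 were lower and 0 higher (median -2.92), 3 of them separated by table the same way. Their summed level was 417 CPM in pCAF and 2243 CPM in GFP- EpCAM-, with 114 CPM in sCAF and 2550 CPM in NMF. Of the NMF sum, 2461.5 CPM was Apoe alone. GFP- EpCAM- was the highest of its table for all 13. Within its own table pCAF was the highest for 8 of the 13 and the lowest for 1. Apoe, a lipid carrier gene of macrophages and other stroma, stood at 249 CPM in pCAF and 887 CPM in GFP- EpCAM-, 3.57-fold lower (2.93 to 4.39), and the signalling adaptor Tyrobp was 9.90-fold lower (4.95 to 23.2). Csf1r, the growth factor receptor of macrophages, had 11 counts in pCAF and 32 in GFP- EpCAM- and met neither call. Of 10 skeletal muscle genes 9 were compared and 8 were lower (median -3.89), among them Acta1, skeletal actin, with 16 counts in pCAF and 730 in GFP- EpCAM-, 14.8-fold lower (9.06 to 26.1). Of 22 epithelial and carcinoma genes 15 were compared and 12 were lower (median -3.04), 6 of them separated by table the same way. Their sum was 143 CPM in pCAF and 2320 CPM in GFP- EpCAM-, against 8424 to 18758 CPM in the GFP+ and EpCAM+ sorts. It was 7243 CPM in sCAF and 301 CPM in NMF. Krt18, a keratin of simple epithelia, had 16 counts in pCAF and 622 in GFP- EpCAM-, 12.6-fold lower (7.71 to 22.2). Of 14 adipocyte genes 6 were compared, and 4 were lower and 1 higher (median -4.17): Fabp4, a fatty acid carrier gene of fat and capillary endothelium, was 1077-fold lower (193 to 42548), and Lpl, lipoprotein lipase, 4.31-fold higher (3.01 to 6.21). Neutrophil, lymphocyte and dendritic lists had 2 of 10, 3 of 17 and 2 of 9 genes compared, with 1, 2 and 1 lower. The neutrophil gene S100a9 and the dendritic gene Batf3 were separated by table the same way, and no red blood cell gene reached 20 counts.

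**Figure D4:**
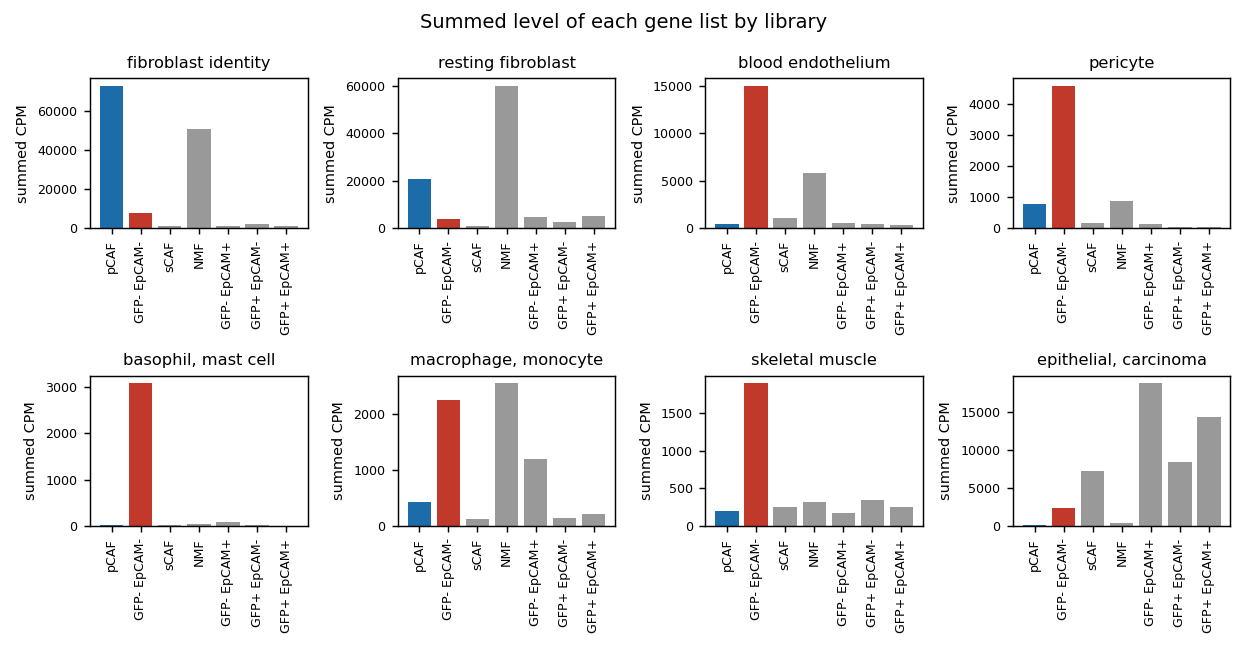
Summed CPM of 8 gene lists in each library, with pCAF in blue, GFP- EpCAM- in red and the other 5 libraries in grey; each panel has its own scale from 0. Fibroblast identity genes sum to 73354 CPM in pCAF and 7970 CPM in GFP- EpCAM-, and blood endothelial genes to 400 and 15063 CPM in the same order of bars.

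Antigen presentation genes and some interferon genes were lower in pCAF, but they also separated the tables. All 6 compared class II genes, of 7 listed, were lower (median -3.00), and all 6 were separated by table the same way. Cd74, the class II invariant chain, stood at 124 CPM in pCAF and 929 CPM in GFP- EpCAM-, 7.47-fold lower (5.69 to 10.01), while the other sorts of the second table stood at 2229 to 4021 CPM. GFP- EpCAM- was thus the lowest of its own table for Cd74. Of 20 interferon-induced genes 19 were compared, and 9 were lower and 0 higher (median -1.80), 8 of them separated by table the same way. The other 10 met neither call. Without genes separated in the direction of their call, a setting added after seeing the data, the median was -0.48. Over all genes it was -0.45 under that setting. Cxcl10, an interferon-induced chemokine, was 4.84-fold lower (3.83 to 6.20), and Isg15, a ubiquitin-like protein gene, met neither call at 0.494 (0.396 to 0.611).

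Stress, proliferation and metabolic lists were mixed. Of all genes compared, 7.30% were higher and 14.2% lower in pCAF. The few calls in some of these lists, such as the lower proliferation genes, lie near those shares. Of 19 immediate early and dissociation genes, all compared, 2 were higher and 1 lower (median -0.68), the lower Klf6, a transcription factor gene, separated by table the same way, and their sum was 19151 CPM in pCAF and 25666 CPM in GFP- EpCAM-. Fos stood at 1786 CPM in pCAF and 3021 CPM in GFP- EpCAM-, a ratio of 0.591 (0.547 to 0.638). Cytosolic chaperones had 7 of 15 compared higher and 1 lower, of 16 listed (median 1.11), with Hspa1a, an inducible heat shock protein, at 3.42-fold (2.98 to 3.93). The chaperone genes Hsp90aa1 and Hspa8 among the higher and Hsp90ab1, the lower, were separated by table the same way. Proliferation genes had 3 of 16 lower and 0 higher, of 21 listed (median -1.22), 1 of them, the mitotic kinase gene Aurka, separated by table the same way, and Mki67 had 9 counts in pCAF and 25 in GFP- EpCAM-. Glycolysis and hypoxia genes had 1 of 16 higher and 1 lower, of 20 listed (median 0.23): Vegfa, the vessel growth factor gene, was 8.92-fold higher (6.38 to 12.7) and Hk1, a hexokinase separated by table the same way, 3.32-fold lower (2.16 to 5.34). The call of Hk1 was lost with TMM factors (log2 ratio -1.59). TGF-beta ligand, receptor and target genes had 4 of 15 higher and 1 lower, of 18 listed (median 0.72), with Tgfb3, a ligand, at 5.20-fold (3.72 to 7.33) and Tgfbi, a secreted target, 3.10-fold lower (2.28 to 4.32). The receptor gene Tgfbr2 was among the higher and separated by table the same way. Folding genes of the endoplasmic reticulum had 2 of 16 higher and 0 lower, of 17 listed (median 0.33), both separated by table the same way. Lysosomal genes had 3 of 16 higher and 1 lower, of 17 listed (median -0.18, and 0.06 with GFP- EpCAM- thinned), with the protease gene Ctsk among the higher and separated by table the same way. Ribosomal protein genes took 10.7% of the counts in pCAF and 8.55% in GFP- EpCAM-, with 18 of 76 compared higher and 3 lower (median 0.41), of which 14 were separated by table the same way.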

How the data were processed

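Expression was measured by 3' mRNA sequencing of sorted mouse cells. The authors deposited raw counts by gene name in 2 tables, whole numbers without scaling. The tools and build in the submitters' processing notes are bcl2fastq, cutadapt, STAR, HTSeq, DESeq2 and mm10. Their roles, settings and versions, the strand handling and any collapse of reads by molecular identifier are not given in the sources used. Duplicates from amplification may therefore remain in the counts, and genes with pseudogenes or overlapping neighbours are uncertain. Names turned into dates (27 and 21, 0.152% to 0.198% of a library's counts) were left out.

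Groups came from the labels, 1 library each, so no test and no p-value is given. Counts were scaled to CPM on shared names, which held 99.67% of the pCAF and 100% of the GFP- EpCAM- gene counts. Ratios carry exact 95% Clopper-Pearson intervals from the conditional binomial, computed in Python 3.11.15 with scipy 1.17.1. Where a library had 0 counts it was given 3, and the ratio is given as "at least", though the exact interval reaches nearer to 1. Calls used the exact interval. The interval rule was run on simulated counts with counting error only, at the depths of the libraries compared. That run cannot show errors from the separate tables or from amplification. The libraries, the 33 gene lists and the rules were chosen with earlier results of these data known. The result of 1 of the lists is not reported here. Named genes are the sort markers, the 10 at each end by the interval bound nearest to 1 (without predicted, clone-named, pseudogene, ribosomal protein and table-separated names), the 5 of highest rank per library, up to 6 table-separated genes with the largest ratio, up to 8 with the largest rank difference each way, and up to 4 members of a list by counts and 2 more by ratio each way; other list members named were chosen after their values were seen. Alternatives were all gene counts as totals, TMM factors (edgeR 4.0.16, R 4.3.3), DESeq2 size factors (1.42.0), ribosomal protein genes left out, 100 counts, no count filter, a 4-fold rule, GFP- EpCAM- thinned to the pCAF total, and table-separated genes left out; leaving out genes separated in the direction of their call was added after seeing the data. Positions are from GENCODE on GRCm38, which holds 96.6% of the shared names.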

Additional observations from a re-analysis of the deposited data

Results flagged for a closer look

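The first table lists 11158 names that are not in the second, and they hold 1459 pCAF counts (0.335%). They enter none of the comparisons above. Of them, 8 had 20 or more counts in pCAF. All 8 also stood above the normal fat pad stroma, with the whole counting interval of that ratio beyond 2-fold. Calca, which encodes calcitonin and the peptide CGRP, had 52 counts in pCAF and 0 in sCAF and NMF. Spock1, an extracellular proteoglycan gene, had 38 counts in pCAF and 0 in sCAF and NMF, and Upk1b, a uroplakin gene, had 20 counts in pCAF and 0 in both. Col11a1, a fibrillar collagen gene, had 24 counts in pCAF, 0 in sCAF and 2 in NMF. Plagl1, an imprinted zinc finger gene, had 23 counts in pCAF, 0 in sCAF and 3 in NMF. Fam101a had 29 counts in pCAF, 3 in sCAF and 1 in NMF, and Gzme, a granzyme gene, had 20 counts in pCAF, 3 in sCAF and 1 in NMF. Gm6682 had 33 counts in pCAF, 107 in sCAF and 9 in NMF. No level of these genes in GFP- EpCAM- was analysed here.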

How the results depend on the processing

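No paired analysis was possible because each group had 1 library, and no replicate could be left out. The number of genes higher in pCAF, 560, became 247 at 100 counts, 274 with the 4-fold rule, 338 without table-separated genes and 372 without those separated in the direction of their call, a setting added after seeing the data. The number lower, 1087, became 633, 452 and 588 under the first 3 of these. The rank correlation, 0.518, became 0.375 at 100 counts, 0.647 with no count filter and 0.339 with GFP- EpCAM- thinned. The median log2 ratio of all genes, -0.46, became -0.33 with TMM and -0.29 with DESeq2 size factors. No call reversed under the settings run; the median of lysosomal genes, -0.18, was 0.06 with GFP- EpCAM- thinned. Over 199 named genes, 1745 gene and setting pairs kept their call, 63 lost it, 49 of them under the 4-fold rule, and 3 gained one. Of the 28 list medians, several shifted without table-separated genes: inflammatory fibroblast to 4.47, proteoglycan to 5.81, blood endothelial to -3.32, adipocyte to -1.27, interferon to -0.77, matricellular to 3.96, pericyte to -3.98, fibrillar collagen to 2.65 and fibroblast identity to 2.36. The contractile median went from -0.447 to -0.014 and that of immediate early genes from -0.681 to -0.519. The class II list had no gene left under this setting. The cause of these shifts was not tested beyond what each setting leaves out. The shallow pCAF library limits what 0 counts can show to 6.9 CPM.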

Other observations

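Some genes chosen after their values were seen stood apart in a single library. Osm, the cytokine oncostatin M, had 1 count in pCAF and 615 in GFP- EpCAM-, with 0 to 8 in the other 5 libraries. Cyp11a1, which starts steroid synthesis, had 3 counts in pCAF and 560 in GFP- EpCAM-, with 0 to 14 in the other 5.

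Some genes with close copies had uneven counts across libraries. Gapdh had 0 counts in pCAF and 39 in GFP- EpCAM-, with 545 in NMF, 3714 in sCAF and 62 to 95 in the other sorts. Some names of predicted or copied genes had counts mainly in the first table. Gm12338 had 188 counts in pCAF and 0 in GFP- EpCAM-, and Eno1b had 76 in pCAF and 0 in GFP- EpCAM-. Gm1821 had 118 counts in pCAF and 1 in GFP- EpCAM-. All 3 had 56 to 225 counts in NMF and sCAF and 0 to 3 in the other sorts.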
